A study of Mus musculus with 23 samples.

Results

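Muscle of mice carrying 1, 2 or 3 copies of the *Hspa13-App* interval of chromosome 16 was analysed as a single series, by fitting 1 slope of expression on copy number for every detected probe. All 23 arrays of the series, out of 23, enter the fit, each from the gastrocnemius of 1 mouse. In order of copies they are 6 Ms3Yah Del mice, which are monosomic for the interval, 6 diploid Ms3Yah WT littermates, 5 diploid Ts2Yah WT mice and 6 Ts2Yah Dup mice, which carry the tandem duplication and are trisomic. The name Ts2Yah is that of the labels, and the paper calls the same line Ts3Yah. By its methods, 1 diploid control of this line was excluded for a differing expression profile, and the series holds 5. All 4 groups share the C57BL6/J strain label, and neither age nor sex is given in the labels. Each rearrangement was made in embryonic stem cells with *Hprt*-based vectors, so each line goes back to engineered chromosomes of its own and brings its own diploid littermates. In build GRCm38.p6 the interval runs from *Hspa13* to *App*, chr16:75755190-85175255.

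Aneuploidy changes the template number of every gene on a segment at once. A gene without compensation makes transcript in proportion to its copies, while a gene that is buffered, cut by a breakpoint or sensitive to the genetic background departs from that line. Among the genes of this interval, *Atp5j* encodes coupling factor 6 of the mitochondrial ATP synthase, *Mrpl39* a protein of the mitochondrial ribosome, *Gabpa* the DNA-binding subunit of a factor that drives nuclear genes for mitochondrial proteins, and *Nrip1* a corepressor of oxidative genes, so the segment bears on how muscle burns fuel.

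The slope is the change of log2 signal per added copy, with the line (Ms3Yah or Ts2Yah) as a covariate, so that each aneuploid group is read against its own littermates. Signals are quantile-normalised intensities on an arbitrary linear scale, without background subtraction, which compresses the changes of dim probes. The bend is the step from 2 to 3 copies (Ts2Yah Dup minus Ts2Yah WT) minus the step from 1 to 2 copies (Ms3Yah WT minus Ms3Yah Del), so 0 is a straight line on the log2 scale. A signal strictly proportional to copies would step by 1.00 and then by 0.58, a bend of -0.42. Of 45281 probes, 20038 were detected, with a detection p-value under 0.05 on at least 5 arrays, and p-values come from limma, two-sided, adjusted over these probes by Benjamini-Hochberg.

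The slope passed an adjusted p of 0.05 for 16 probes, 0.0798% of those tested. Of these 10 rose with copies (0.0499%) and 6 fell (0.0299%). At an unadjusted p under 0.05, 3.00% of the probes had a positive slope and 3.77% a negative one. Over all detected probes, the called ones included, the 2 steps correlated at 0.09 as a description, and 52.2% of probes had both steps of 1 sign. In 11 of the 16 called slopes both steps had 1 sign and the bend did not reach an unadjusted p of 0.05. In the other 5, all rising, the bend was below that value and negative, the step from 1 to 2 copies being the larger. A bend passed its own test, adjusted over all probes, in 3 probes (0.0150%), 1 of which, of nonagouti, was detected in Del mice alone, where an unadjusted p under 0.05 was met by 4.98%, of which 2.43% of all probes bent downwards and 2.55% upwards. The step from 1 to 2 copies taken alone was called for 14 probes (0.0699%), and the step from 2 to 3 copies for none, with 1064 of the 20038 probes at an unadjusted p under 0.05 in limma and none after adjustment of the methods' t-test either.

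**Figure D1:**
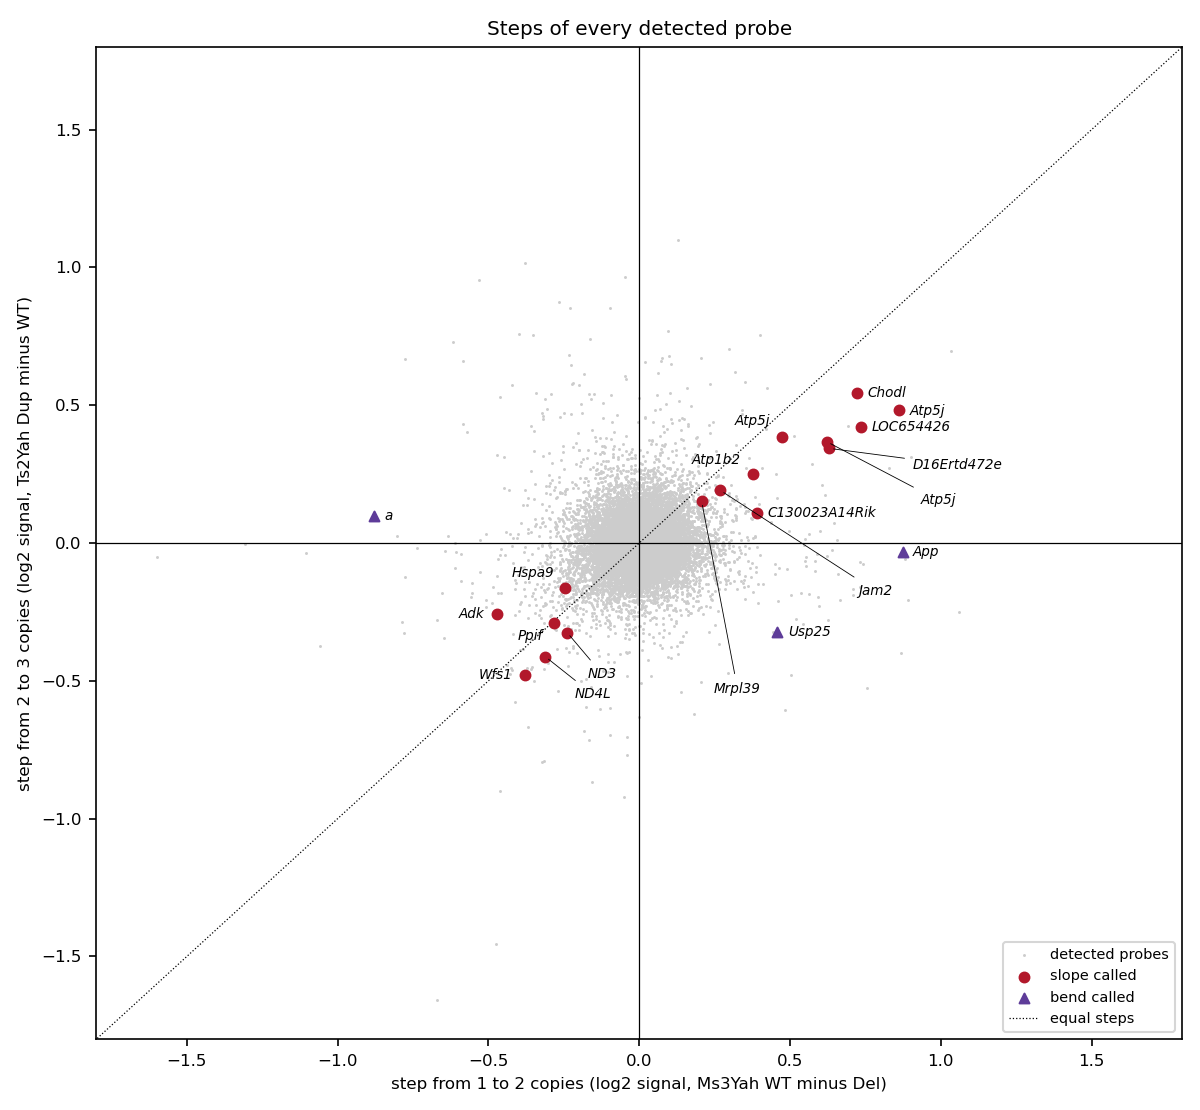
Step in log2 signal from 1 to 2 copies (horizontal, Ms3Yah WT minus Ms3Yah Del) against the step from 2 to 3 copies (vertical, Ts2Yah Dup minus Ts2Yah WT) for the 20038 detected probes, in grey. Red circles mark the 16 called slopes, all of them with both steps of 1 sign, and purple triangles the 3 called bends, for which they differ; the dotted line marks equal steps.

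Interval genes supplied most of the rising slopes. Of the 15 genes that the study places in the interval, 11 had a detected probe (20 probes), and 7 of the 20 probes, from 5 genes, were called, all rising, beside 0.0499% of all probes. *Hspa13*, *Cxadr*, *Tmprss15* and *Ncam2* had no detected probe. The slope was positive for 19 of the 20 probes, against 10195 of the 20018 probes outside the interval, and the median slope of the 20 was 0.14 per copy, against 0.00 outside. For 18 of the 20 the bend was negative, and 7 bends of the 20 had an unadjusted p under 0.05, beside 4.98% of all probes. Neighbouring genes on chromosome 16 with 2 copies in every mouse gave 11 detected probes from 8 genes, none called for slope or bend, with a median slope of 0.00. The 1 border probe at an unadjusted p under 0.05 was of *Usp16*, a deubiquitinating enzyme, with a slope of -0.15 ± 0.06 (SE; adjusted p = 0.566 in limma).

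*Atp5j* had the smallest slope p-values of the series. Its brightest probe (ILMN_2962632) ran from 11580 through a median of 13080 to 13990 in Ms3Yah Del muscle, 18230, 20400 and 21170 in Ms3Yah WT, and 22570, 26200 and 27770 in Ts2Yah Dup. The 5 Ts2Yah WT mice gave 20400, 21320, 18100, 19560 and 20270. No array of 1 copy overlapped any array of 2 copies, and none of 2 copies any of 3, whichever line it came from; both diploid groups lay together. The slope was 0.50 ± 0.05 per copy (SE; adjusted p = 5.65e-06 in limma), built from steps of 0.62 and 0.37.

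The second probe (ILMN_2611261) rose by 0.68 ± 0.07 per copy (adjusted p = 5.65e-06), with steps of 0.86 and 0.48, and the third (ILMN_2632890) by 0.43 ± 0.07 (adjusted p = 0.00502), with steps of 0.47 and 0.38. The second probe showed the same strict order over all 23 arrays, with 383.5 to 523.9 at 1 copy, 721.7 to 955.5 at 2 copies and 1063 to 1344 at 3 copies. A probe that the study's tables name LOC654426, a pseudogene of *Atp5j*, did so as well, with a slope of 0.59 ± 0.06 (adjusted p = 1.51e-05) and signals of 3378 to 4344 at 1 copy, 5277 to 6955 at 2 and 7034 to 9136 at 3. Whether that probe reads the pseudogene or *Atp5j* itself cannot be told apart here, so it is not counted as a further gene. These 3 probes were the only ones with this strict order among the 20038 (0.0150%), and none had the opposite order. Within each line taken alone, 5 probes (0.0250%) kept both aneuploid groups clear of their littermates with both steps up, namely these 3, *Chodl* and *D16Ertd472e*.

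On the log2 scale the brighter 2 *Atp5j* probes bent downwards, by -0.26 (95% interval -0.43 to -0.08, unadjusted p = 0.00703) and -0.38 (-0.61 to -0.15, unadjusted p = 0.00243), neither passing the adjusted limma test. Read against log2 of the copy number, the same bends were 0.01 (-0.25 to 0.26) and -0.04 (-0.37 to 0.29). On linear signal, the second probe gained 352 ± 29.2 units per copy (SE), with a bend of -24.6 units (-148 to 99.2).

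*Atp5j* starts within the same stretch of DNA as its neighbour *Gabpa*, transcribed the other way, and the windows around their starts are shown because the 2 genes share a start region. They are RefSeq promoter windows of build GRCm38.p6, from 250 bases before to 50 after the start, at chr16:84834927-84835226 (minus strand) for *Atp5j* and chr16:84834874-84835173 (plus strand) for *Gabpa*, with 247 bases in common. *Mrpl39*, at chr16:84735195-84735494 (minus strand), is added as an interval gene for a mitochondrial protein with a called slope. Capitals mark matches on either strand to CGCATGCG, the core of the site of nuclear respiratory factor 1, and CCGGAAG, a core of sites of the ETS family, to which the *Gabpa* product belongs.
Atp5j: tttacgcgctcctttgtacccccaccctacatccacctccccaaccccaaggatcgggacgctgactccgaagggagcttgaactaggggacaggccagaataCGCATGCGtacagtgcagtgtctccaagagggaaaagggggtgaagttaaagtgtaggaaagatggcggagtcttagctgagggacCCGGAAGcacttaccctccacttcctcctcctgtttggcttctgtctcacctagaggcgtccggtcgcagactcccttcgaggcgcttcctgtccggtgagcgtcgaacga
Gabpa: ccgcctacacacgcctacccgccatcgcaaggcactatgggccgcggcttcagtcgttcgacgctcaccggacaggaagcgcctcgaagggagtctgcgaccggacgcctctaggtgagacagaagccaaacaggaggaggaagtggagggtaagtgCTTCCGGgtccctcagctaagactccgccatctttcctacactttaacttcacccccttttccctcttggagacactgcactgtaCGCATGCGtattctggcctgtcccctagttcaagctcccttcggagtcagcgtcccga
Mrpl39: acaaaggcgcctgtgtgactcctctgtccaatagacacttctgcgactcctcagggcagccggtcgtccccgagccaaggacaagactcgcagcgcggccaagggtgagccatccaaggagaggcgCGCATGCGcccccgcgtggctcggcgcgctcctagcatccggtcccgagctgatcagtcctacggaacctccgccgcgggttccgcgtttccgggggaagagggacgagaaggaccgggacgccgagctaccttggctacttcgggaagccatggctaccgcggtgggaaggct
Both motifs lie in the stretch that *Atp5j* and *Gabpa* share, and *Mrpl39* has the first. Of the 2 *Atp5j* windows only the 1 shown holds them. The windows of *Samsn1*, *Nrip1*, *Usp25*, *D16Ertd472e*, *Chodl* and *App* hold neither, and *Btg3* has the second motif in 1 of 2 windows. Of 32851 windows of this length, 1.87% hold CGCATGCG, 8.86% hold CCGGAAG and 0.365% both. A match is a description of the letters and not of binding in these muscles.

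*Gabpa* was near the detection limit and its slope did not pass. Its 2 detected probes were detected on 11 and 13 of the 23 arrays, with slopes of 0.10 ± 0.04 (unadjusted p = 0.00976, adjusted p = 0.502) and 0.06 ± 0.04 (adjusted p = 0.832) in limma. The first probe (ILMN_2758120) ran from 89.1 through 90.3 to 97.5 in Ms3Yah Del, 89.2, 99.3 and 112.5 in Ms3Yah WT and 97.7, 101.3 and 110.0 in Ts2Yah Dup, with 100.5, 98.6, 87.7, 94.4 and 101.7 in the Ts2Yah WT mice. In each line the aneuploid mice overlapped their littermates, while the Del and Dup mice did not overlap each other. The lowest raw signal on any array was 66.7, so these signals lay near the floor, where changes are compressed. After neqc, a normalisation that subtracts background, the slopes of the first and second probe were 0.30 (adjusted p = 0.527) and 0.17 (adjusted p = 0.807), and no test compared them with *Atp5j*.

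*Mrpl39* rose by 0.18 ± 0.03 per copy (adjusted p = 0.0336 in limma), with steps of 0.21 and 0.15 and a bend of -0.06 (95% interval -0.20 to 0.08). Its signals ran from 94.7 through 103.5 to 114.1 in Ms3Yah Del, 113.8, 120.5 and 127.8 in Ms3Yah WT and 121.2, 125.5 and 131.4 in Ts2Yah Dup, with 115, 123.1, 111.8, 108.1 and 108 in Ts2Yah WT. Of the 6 Del mice 5 lay below every littermate, and of the 6 Dup mice 3 above every littermate. This call was lost when any of 13 of the 23 arrays was left out, and after median scaling.

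*Chodl*, which encodes chondrolectin, a C-type lectin of the cell surface found in muscle and motor neurons, rose with both steps. Its signals ran from 212.0 through 228.6 to 284.9 in Ms3Yah Del, 301.2, 371.3 and 534.9 in Ms3Yah WT and 534.6, 676.2 and 836.8 in Ts2Yah Dup, with 509.9, 406.1, 465.5, 492.1 and 477.6 in Ts2Yah WT. Within each line the 2 genotypes did not overlap. In the paper *Chodl* was among the most changed array genes of the duplication line. Its QRT-PCR, however, excepted *Chodl* from the rise of trisomic genes. The slope was 0.64 ± 0.08 (adjusted p = 0.000528 in limma), with steps of 0.72 ± 0.12 and 0.54 ± 0.12 and a bend of -0.18 whose 95% interval, -0.53 to 0.17, holds both a straight line and proportionality. Ts2Yah WT exceeded Ms3Yah WT by 0.29 (unadjusted p = 0.0282, adjusted p = 0.153), and their highest Ms3Yah WT mouse matched the lowest Dup mouse.

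*D16Ertd472e*, the mouse counterpart of human C21orf91, rose by 0.49 ± 0.07 per copy (adjusted p = 0.000847). Signals ran from 126.9 through 141.3 to 157.0 in Ms3Yah Del, 180.5, 213.1 and 267.1 in Ms3Yah WT and 211.3, 229.0 and 243.4 in Ts2Yah Dup, with 195.6, 175.5, 193.5, 162.3 and 179.4 in Ts2Yah WT. Within each line the genotypes were apart, while Ms3Yah WT mice reached above the Dup mice. The 2 diploid groups, with equal copies, differed by -0.27 (Ts2Yah WT minus Ms3Yah WT, unadjusted p = 0.00727 in limma). Its steps were 0.63 and 0.34 and its bend -0.29 (95% interval -0.55 to -0.03, unadjusted p = 0.0319).

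*Jam2*, a junctional adhesion molecule of endothelium, was read by 4 detected probes that disagreed in size. One (ILMN_2592881) was called, with a slope of 0.23 ± 0.03 (adjusted p = 0.00269) and steps of 0.27 and 0.19. Its signals ran from 96.5 through 101.6 to 109.5 in Ms3Yah Del, 116.0, 121.9 and 130.9 in Ms3Yah WT and 140.1, 148.0 and 155.9 in Ts2Yah Dup, with 124.4, 128.8, 146.2, 121.3 and 130.1 in Ts2Yah WT. The brightest *Jam2* probe (ILMN_1227559) had steps of 0.37 and 0.09 and an unadjusted bend p of 0.0347, and the other 2 had slopes of 0.08 and 0.06. On these 3 probes the Ts2Yah WT level exceeded that of Ms3Yah WT by 0.25 to 0.44 (unadjusted p from 5.38e-05 to 0.000119), more than either step of the same probe.

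**Figure D2:**
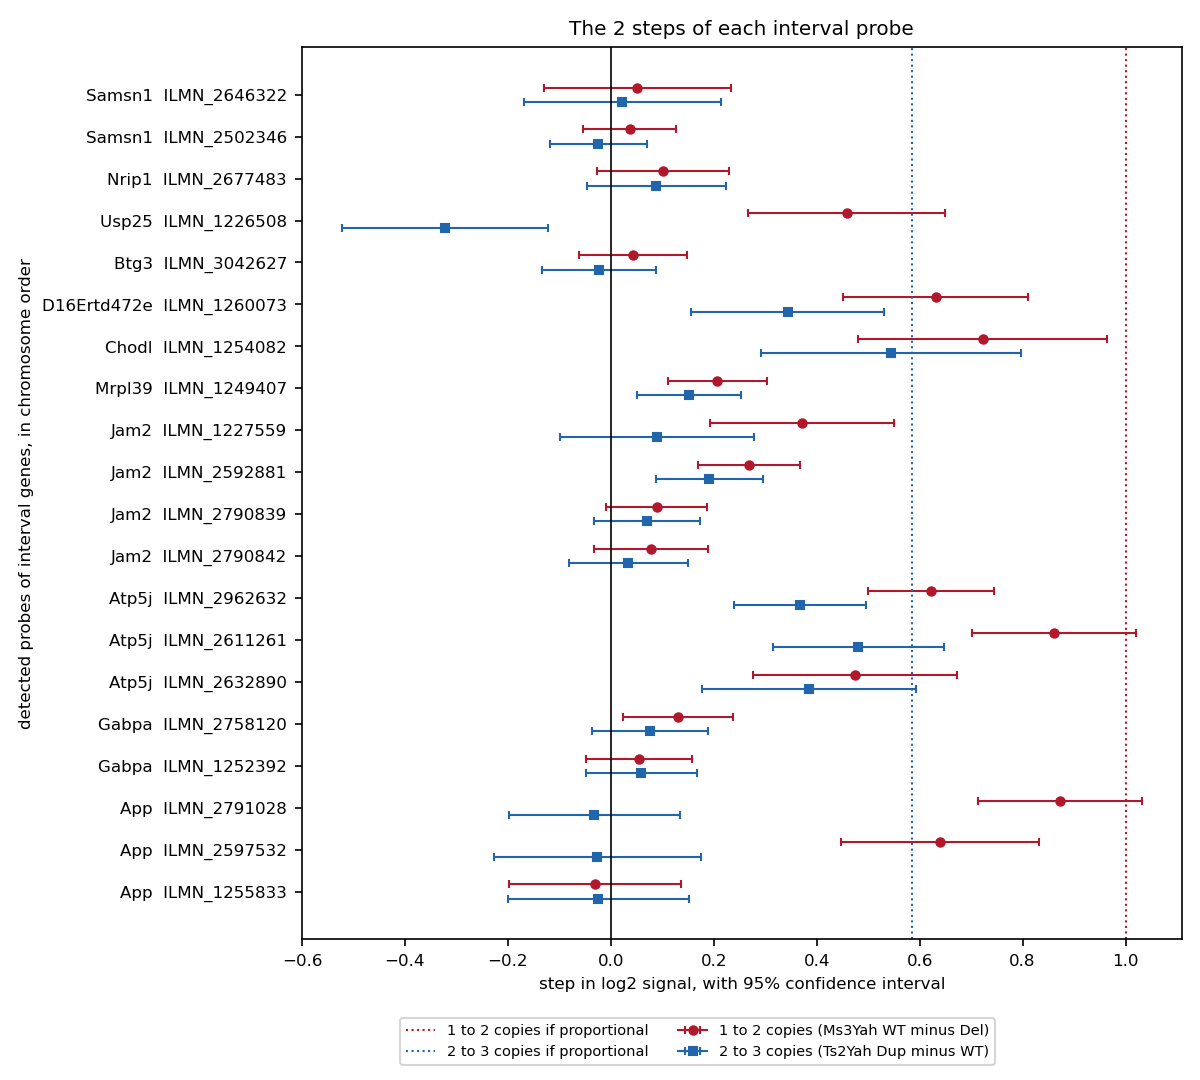
Steps in log2 signal from 1 to 2 copies (red circles) and from 2 to 3 copies (blue squares), with 95% confidence intervals, for the 20 detected probes of 11 interval genes in chromosome order. Dotted lines mark the steps of 1.00 and 0.58 that proportional signal would give; the 3 *Atp5j* probes, *Chodl*, *D16Ertd472e*, *Mrpl39* and 1 *Jam2* probe have both intervals above 0, while the brighter 2 *App* probes step only from 1 to 2 copies and *Usp25* steps up and then down.

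The steps of the dim genes grew once background was removed. After neqc, with background estimated here from the detection p-values, the slope of *Jam2* was 0.61, that of *Mrpl39* 0.51, that of *D16Ertd472e* 0.83 and that of *Chodl* 0.80 per copy, against 0.50 for the bright *Atp5j* probe, and all 5 kept an adjusted p under 0.05. With neqc, *D16Ertd472e* stepped by 1.10 and 0.54 and *Jam2* by 0.78 and 0.41.

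*Nrip1*, *Samsn1* and *Btg3* had no called slope. *Nrip1* had a slope of 0.10 ± 0.04 (unadjusted p = 0.0400, adjusted p = 0.703), *Samsn1*, an adaptor of leukocytes, 0.04 and 0.01 on 2 probes, and *Btg3*, an antiproliferative gene, 0.01. They were detected on 7 to 18 of the 23 arrays. After neqc the slope of *Nrip1* was 0.29 (adjusted p = 0.672 in limma). The paper, with QRT-PCR data on the interval, counts *Nrip1*, *Btg3*, *Gabpa* and *Hspa13* among genes that followed dosage in both lines. A missing call at such low signal does not show an unchanged gene. *Usp25* and *App* bent, as follows.

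*App*, the gene of the amyloid precursor protein, carried the larger of the downward bends. By the study's methods the targeting vector at the distal end interrupts *App*, so that the duplicated chromosome holds 1 functional copy and the deleted chromosome none, and functional copies are 1 in Del and 2 in the other 3 groups. Its brightest probe (ILMN_2791028) ran from 1112 through 1278 to 1557 in Ms3Yah Del, 2187, 2423 and 2569 in Ms3Yah WT and 2056, 2327 and 2713 in Ts2Yah Dup, with 2513, 2379, 2102, 2302 and 2554 in Ts2Yah WT. All 6 Del mice lay below every other mouse, and the 3 groups with 2 functional copies overlapped. The steps were 0.87 ± 0.08 (adjusted p = 8.34e-07 in limma) and -0.03 ± 0.08 (adjusted p = 0.996), and the bend -0.91 (95% interval -1.14 to -0.67, adjusted p = 0.000417). This call held with any array left out and was lost with median scaling and against log2 of copies.

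A second *App* probe (ILMN_2597532) had steps of 0.64 ± 0.09 (adjusted p = 0.00147) and -0.03 ± 0.10, with a bend of -0.67 (95% interval -0.94 to -0.39) that did not pass (adjusted p = 0.228). The third (ILMN_1255833), with group medians between 112.0 and 132.4, had steps of -0.03 and -0.02, and its 95% interval for the bend was -0.24 to 0.25. With Dup counted as 3 copies, neither of the first 2 probes passed for slope (0.44 ± 0.11, adjusted p = 0.192, and 0.32 ± 0.10, adjusted p = 0.310). A slope on functional copies was not fitted.

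The 1 detected probe of *Usp25*, a deubiquitinating enzyme, read lower than in littermates at both ends of the copy series. The paper, which measured interval genes by QRT-PCR, lists *Usp25* among those raised in the duplication line. Probe and paper thus differ in direction for Dup mice, and the reason was not tested. Signals ran from 111.5 through 124.3 to 134.7 in Ms3Yah Del, 125.9, 178.6 and 208.6 in Ms3Yah WT and 139.2, 143.9 and 160.1 in Ts2Yah Dup, with 178.1, 182.5, 220.9, 169.4 and 163.9 in Ts2Yah WT. Of the 6 Del mice 5 lay below every littermate, and all 6 Dup mice below every littermate. The steps were 0.46 ± 0.09 and -0.32 ± 0.10, neither called alone (adjusted p = 0.0694 and 0.723), and the bend was -0.78 (95% interval -1.06 to -0.50, adjusted p = 0.0460). The bend lost its call when any of 19 of the 23 arrays was left out, and *Usp25* has 1 detected probe of 4. It was also lost in 5 of 11 other settings, namely the 35th percentile filter, no filter, log2 of copies, linear signal and the *Xist* covariate.

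Outside the interval, nonagouti (*a*) on chromosome 2, a coat colour gene whose product signals to pigment cells, stood out in Ms3Yah Del mice. Signals were 146.4 through 164.3 to 190.0 in Ms3Yah Del, 86.5, 88.9 and 93.3 in Ms3Yah WT and 80.2, 89.7 and 98.4 in Ts2Yah Dup, with 79.6, 84.5, 80.9, 83.6 and 88.3 in Ts2Yah WT. The probe was detected in all 6 Del mice and in no other mouse, so the other levels are bounds and Del was at least 1.68-fold higher than Ms3Yah WT. It passed the detection filter only through the Del mice, in which it is high, so its call for the bend and for the step from 1 to 2 copies is no support, and its step from 2 to 3 copies lies between levels not above background. *Hprt*, whose minigene the vectors carried, had a slope of 0.12 ± 0.12 on its brightest probe (adjusted p = 0.928).

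**Figure D3:**
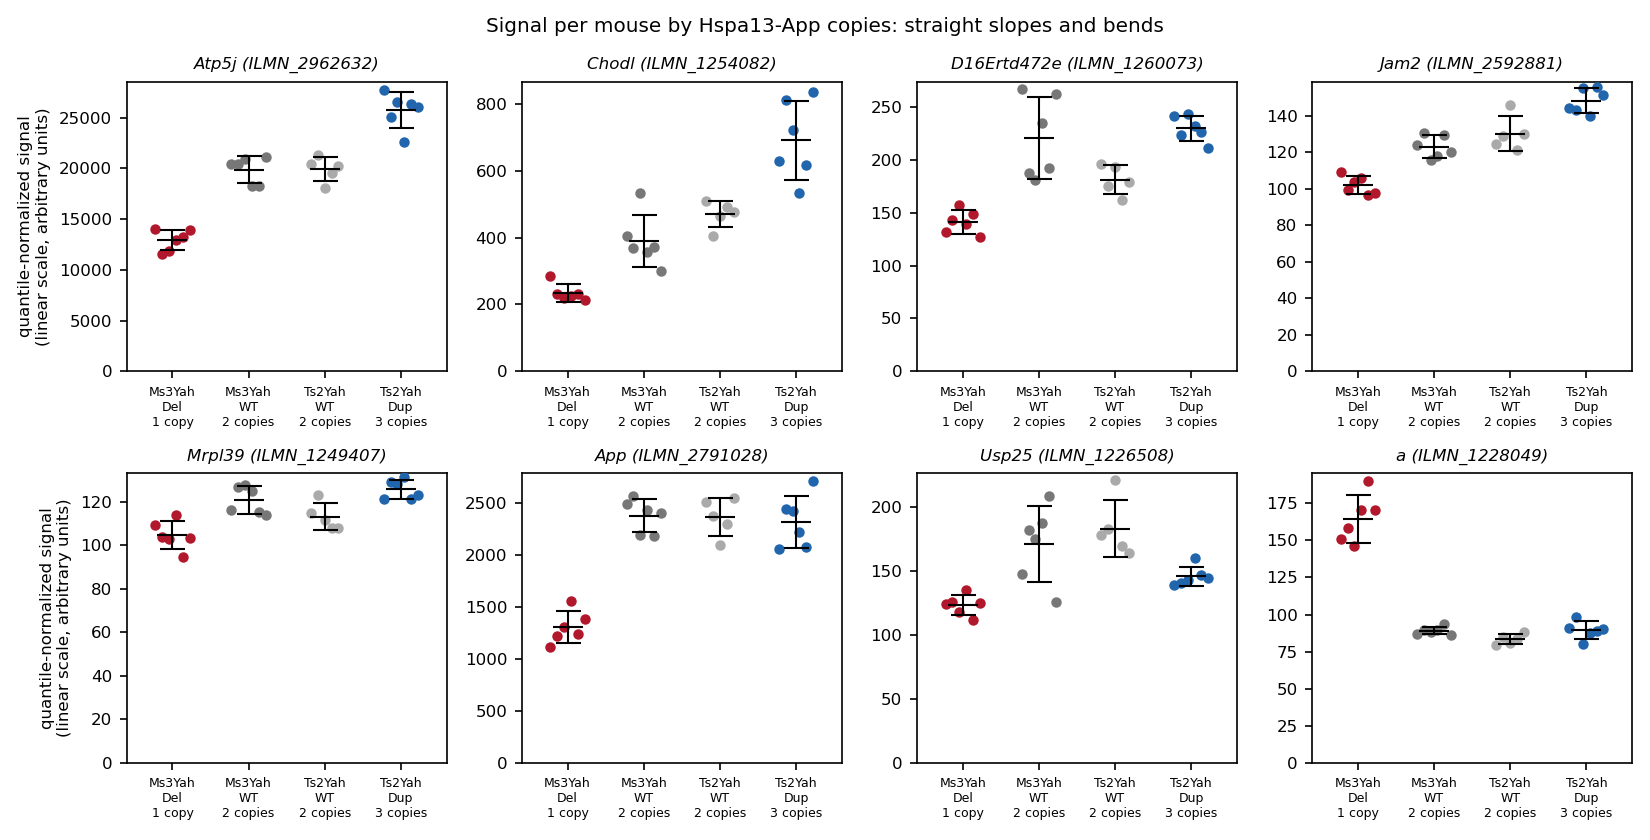
Quantile-normalised signal (linear scale from 0) of each of the 23 mice, by group in order of copies, for 5 probes with called slopes (*Atp5j*, *Chodl*, *D16Ertd472e*, *Jam2*, *Mrpl39*) and the 3 probes with called bends (*App*, *Usp25*, nonagouti). Points are mice and bars the mean ± SD; *App* stays level from 2 to 3 copies, *Usp25* drops in Dup mice, and nonagouti stands out in Del mice alone.

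Outside the interval, 1 placed gene rose with copies. *Atp1b2*, the beta 2 subunit of the sodium pump, on chromosome 11, ran from 1255 through 1379 to 1568 in Ms3Yah Del, 1619, 1749 and 2061 in Ms3Yah WT and 1781, 2180 and 2394 in Ts2Yah Dup, with 1877, 1932, 1537, 1993 and 1655 in Ts2Yah WT. All 6 Del mice lay below their littermates and 4 of 6 Dup mice above theirs, and the diploid groups were level (difference -0.01). The slope was 0.32 ± 0.06 (adjusted p = 0.0396 in limma), the steps 0.38 and 0.25, and the bend -0.13 (95% interval -0.38 to 0.12). This call was lost in 6 of 12 other settings, neqc, series matrix values and median scaling among them, and when any of 15 of the 23 arrays was left out. C130023A14Rik, named from the study's tables, had a slope of 0.26 ± 0.05 (adjusted p = 0.0410), most of it in the first step, 0.39, against 0.11 in the second. Its call was kept in 4 of 12 other settings and lost when any of 19 of the 23 arrays was left out.

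All 6 falling slopes were of genes outside the interval. *Adk* encodes adenosine kinase, *ND4L* and *ND3* subunits of complex I encoded by mitochondrial DNA, *Wfs1* a membrane protein of the endoplasmic reticulum, *Ppif* cyclophilin D of the mitochondrial permeability pore and *Hspa9* the mitochondrial heat shock protein mortalin. The slope was -0.37 ± 0.07 per copy for *Adk*, -0.36 ± 0.07 for *ND4L*, -0.28 ± 0.05 for *ND3*, -0.43 ± 0.08 for *Wfs1*, -0.29 ± 0.06 for *Ppif* and -0.21 ± 0.04 for *Hspa9* (SE), with adjusted p from 0.0336 to 0.0479 in limma. In each, both steps were negative and the bend's interval held 0.

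*Adk* had the largest first step of the 6, -0.47, against a second of -0.26. Signals ran from 1135 through 1369 to 1568 in Ms3Yah Del, 859.5, 983.8 and 1069 in Ms3Yah WT and 815.7, 1028 and 1341 in Ts2Yah Dup, with 1190, 1149, 1243, 1200 and 1343 in Ts2Yah WT. All 6 Del mice lay above every littermate and 5 of 6 Dup mice below every littermate.

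*ND4L* stepped by -0.31 and -0.41. Signals ran from 2743 through 3047 to 3384 in Ms3Yah Del, 2054, 2375 and 2991 in Ms3Yah WT and 2258, 2627 and 3073 in Ts2Yah Dup, with 3090, 3203, 3632, 3641 and 3826 in Ts2Yah WT. All 6 Dup mice lay below their littermates, and 3 of 6 Del mice above theirs. *Wfs1* ran from 489.3 through 580.4 to 750.5 in Del, 377.0, 442.9 and 584.7 in Ms3Yah WT and 380.8, 439.4 and 541.5 in Dup, with 648.6, 508, 552.7, 748 and 684.7 in Ts2Yah WT, and stepped by -0.38 and -0.48. *Ppif* stepped by -0.28 and -0.29, with group medians of 1584 in Del, 1277 in Ms3Yah WT, 1414 in Ts2Yah WT and 1101 in Dup.

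Of the 16 calls, 13 were kept without the line covariate, and the 3 lost were *ND4L*, *ND3* and *Wfs1*, all falling. In all 6 the Ts2Yah WT mean lay above that of Ms3Yah WT although both have 2 copies, in 5 of 6 at an unadjusted p under 0.05 and in 4 of 6 after adjustment, beside 7.58% of all detected probes (adjusted p under 0.05). The difference was 0.51 for *ND4L*, 0.47 for *Wfs1*, 0.33 for *Adk*, 0.34 for *ND3*, 0.16 for *Hspa9* and 0.15 for *Ppif*, while none of the 10 rising probes was called in this comparison. The diploid arrays also enter both steps, so this is not a separate measurement. Dup mice overlapped Ms3Yah WT mice in all 6 genes. Line and breeding cohort cannot be told apart. None of the 6 calls was kept with neqc, with the series matrix values or with median scaling, where the slopes kept their sign, and each was lost when any of 11 to 20 of the 23 arrays was left out.

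**Figure D4:**
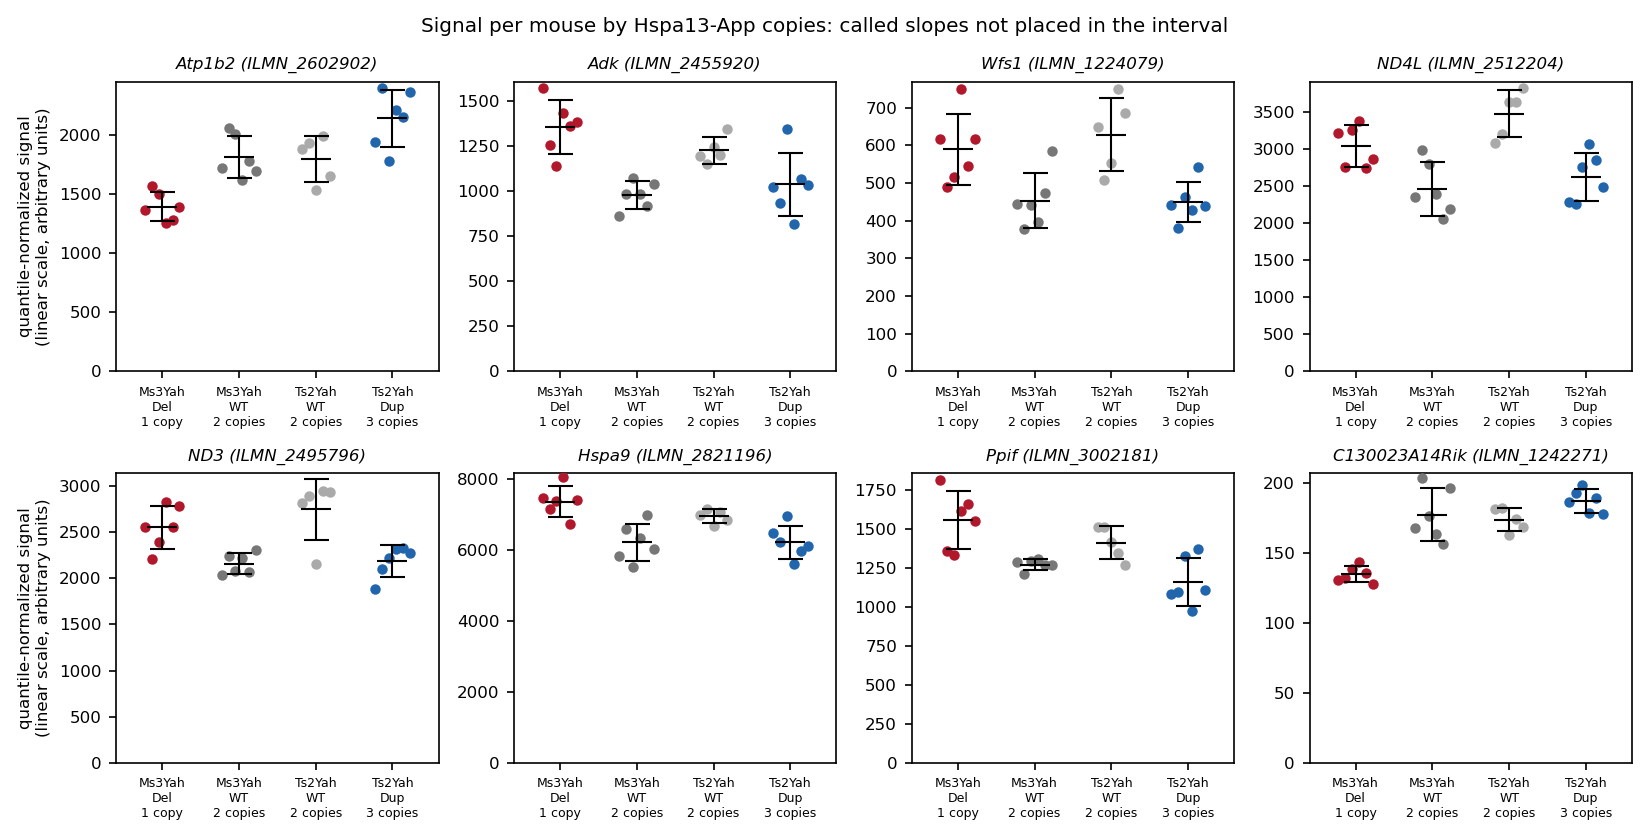
Quantile-normalised signal (linear scale from 0) of each mouse, by group in order of copies, for the 8 called slopes of probes not placed in the interval other than LOC654426. Points are mice and bars the mean ± SD; in *Adk*, *Wfs1*, *ND4L*, *ND3*, *Hspa9* and *Ppif* each aneuploid group departs from its own littermates in opposite directions while the diploid groups differ in level.

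Among pathway lists, genes of oxidative metabolism leaned downwards with copies, though no slope of a member outside the calls above passed alone. Members are read by their brightest detected probe. Of 14 detected TCA cycle genes all had negative slopes, 9 at an unadjusted p under 0.05 (64.3%, against 4.13% of all 10963 detected genes and 3.77% of all probes), with a median of -0.14 per copy against 0.00. Fatty acid oxidation genes had 17 of 18 negative slopes, 10 at that p, with a median of -0.14, and complex IV 11 of 11, 7 at that p, with a median of -0.12. Both steps were negative in 13 of 14 TCA cycle, 16 of 18 fatty acid oxidation and 10 of 11 complex IV genes, beside 26% of all genes and 25.9% of all probes (26.3% had both steps positive). These lists were chosen with earlier results of the same arrays known, and their genes move together, so these counts describe the lists only.

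*Fh1*, fumarase, had the smallest p of the TCA cycle, -0.20 ± 0.04 (unadjusted p = 0.000201, adjusted p = 0.143). Its signals ran from 3875 through 4373 to 4561 in Ms3Yah Del, 3120, 3634 and 3905 in Ms3Yah WT and 2876, 3213 and 3502 in Ts2Yah Dup, with 3508, 3766, 3203, 3293 and 3700 in Ts2Yah WT. Here the diploid groups were level (-0.03) and Dup mice reached lower than either. *Acadm*, medium-chain acyl-CoA dehydrogenase, had -0.23 ± 0.06 (adjusted p = 0.192), with steps of -0.25 and -0.22, and *Cox7a1*, a muscle subunit of complex IV, -0.17 ± 0.05 (adjusted p = 0.310), with steps of -0.20 and -0.14.

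Complexes II and III had 11 of 12 negative slopes, 4 at an unadjusted p under 0.05, and a median of -0.09; 1 member, *Uqcrfs1*, was positive at that p. Complex I had 25 of 33 negative slopes, 9 at that p, and a median of -0.07. ATP synthase genes outside the interval ran against *Atp5j*: 11 of 13 slopes were negative, 4 at that p, with a median of -0.07. *Atp5pb*, its subunit b, had -0.19 ± 0.04 (adjusted p = 0.135) and *Atp5a1*, its alpha subunit, -0.20 ± 0.06 (adjusted p = 0.389). Regulators of the PGC-1 and ERR group had 13 of 15 negative slopes, 3 at that p, among them *Esrra*, the receptor ERR alpha, at -0.27 ± 0.06 and -0.21 ± 0.06 on its 2 probes (adjusted p = 0.103 and 0.299). Both steps were negative in 8 of these 15. The PGC-1 genes *Ppargc1a* and *Ppargc1b* stepped down only from 1 to 2 copies, with steps of -0.33 and 0.06, and of -0.28 and 0.20. Glycolysis had 5 of 12 negative slopes, none at that p in either direction, and a median of 0.01. In complexes II and III, *Cyc1* was called for its step from 1 to 2 copies (-0.30, adjusted p = 0.0355 in limma). Its step from 2 to 3 copies was -0.05, and its slope of -0.18 did not pass.

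**Figure D5:**
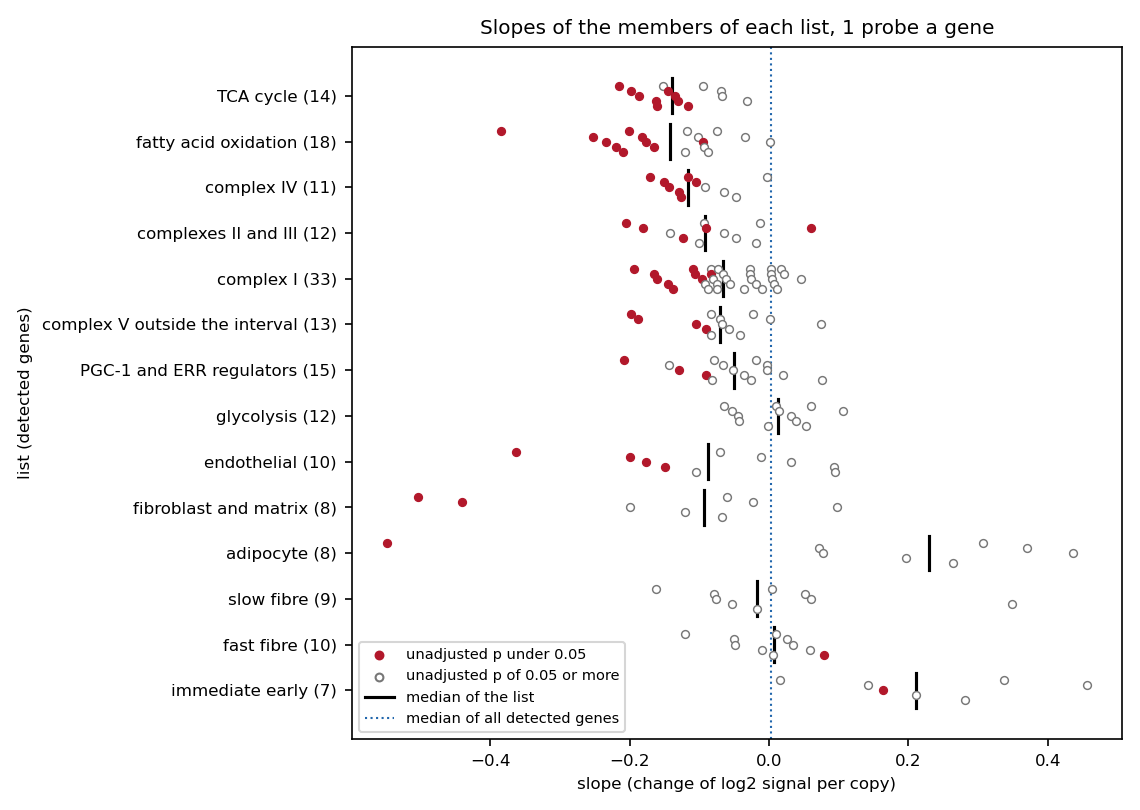
Slope of each detected gene (change of log2 signal per copy, horizontal) in 14 lists, 1 probe a gene, with the number of detected genes in brackets. Filled points have an unadjusted p under 0.05, black bars are list medians and the dotted line the median of all genes; TCA cycle, fatty acid oxidation and complex IV lie almost wholly below 0, and glycolysis around it.

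Markers of some other cell types moved beside these lists, and their part was not tested. Of 10 detected endothelial markers 7 had negative slopes, 4 at an unadjusted p under 0.05, and their summed signal was 4751 to 5169 in Ms3Yah Del, 4244 to 5215 in Ms3Yah WT, 4071 to 5035 in Ts2Yah WT and 3944 to 4304 in Ts2Yah Dup. Matrix genes had 7 of 8 negative slopes, 2 at that p, with summed signals of 19500 to 28120 in Ms3Yah Del, 16850 to 23570 in Ms3Yah WT, 14700 to 23140 in Ts2Yah WT and 17320 to 22720 in Ts2Yah Dup. Both steps were negative in 5 of the 10 endothelial markers and in 3 of the 8 matrix genes. The median step of the matrix genes was -0.27 from 1 to 2 copies and 0.08 from 2 to 3. Adipocyte markers had 7 of 8 positive slopes, none of the 7 at that p, while *Rbp7*, a retinol-binding protein, had -0.55 ± 0.20 (unadjusted p = 0.0129, adjusted p = 0.539 in limma). Both steps were positive in 2 of the 8, and the median step was 0.46 from 1 to 2 copies and -0.18 from 2 to 3. Their sum is dominated by *Car3*, which muscle also expresses, with medians of 10030 in Ms3Yah Del, 10920 in Ms3Yah WT, 15760 in Ts2Yah WT and 20380 in Ts2Yah Dup. The summed signal of the list was 9696 to 18830 in Ms3Yah Del, 11750 to 23190 in Ms3Yah WT, 9497 to 21530 in Ts2Yah WT and 14760 to 25430 in Ts2Yah Dup. The 3 detected nerve and Schwann cell markers of 8, *Pmp22*, *Mbp* and *Sox10*, had negative slopes and both steps negative, *Sox10* alone at that p (0.0476), with a median slope of -0.21 and summed signals of 1682 to 2621 in Ms3Yah Del, 1454 to 2505 in Ms3Yah WT, 1489 to 4902 in Ts2Yah WT and 1494 to 2363 in Ts2Yah Dup. In whole muscle, fewer cells of a type and less RNA per cell cannot be told apart. Slow and fast fibre genes had medians of -0.02 and 0.01 per copy, both of which changed sign with median scaling. Macrophage and leukocyte markers had 4 positive and 4 negative slopes and erythroid markers 2 and 2. The 4 detected satellite cell markers all had positive slopes. No slow fibre, macrophage and leukocyte, erythroid or satellite cell member had that p. Of the fast fibre genes *Tnnc2*, a fast troponin, alone had it, with 0.08 ± 0.03. Of 8 muscle fibre genes such as *Acta1* and *Ckm* all were detected, with 4 positive and 4 negative slopes. Among them *Mb*, myoglobin, alone had that p, with -0.16 ± 0.06. All 7 detected immediate early genes had positive slopes, *Junb* alone at that p.

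The arrays were alike in depth, with 16945 to 18669 probes detected per array and pairwise correlations of log2 signal of 0.973 or more. Sex is not labelled. *Xist*, a transcript of the inactive X chromosome (ILMN_2475156), was detected in 3 of 6 Ms3Yah Del, 3 of 6 Ms3Yah WT, 2 of 5 Ts2Yah WT and 4 of 6 Ts2Yah Dup mice. *Eif2s3y*, a gene of the Y chromosome, read 496.3 or more in every mouse without *Xist* and 116.8 or less in every mouse with it. By these 2 genes each group held both sexes. Their shares differed between Ts2Yah WT and Dup, so the step from 2 to 3 copies carries that difference. With the level of *Xist* as a covariate the slope was again called for 16 probes, 13 of them shared. *Hspa9*, *Ppif* and C130023A14Rik were not among these, with adjusted p of 0.0507 to 0.0581.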

How the data were processed

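Total RNA from gastrocnemius muscle of 23 mice was measured by the authors on BeadChips of the Illumina MouseWG-6 v2.0 design, and each mouse, with an array of its own, is 1 replicate. The deposited signal table holds probe intensity without normalisation between arrays, and a detection p-value per probe and array, both as deposited by the authors. Scanner software is not given in the sources used here. The series matrix, whose column medians were 3.81 to 3.85, holds background-subtracted intensity of the authors, quantile-normalised by the study's methods, with a background step that is not known here, and served as an alternative.

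Intensities were quantile-normalised and log2-transformed, and probes with a detection p-value under 0.05 on at least 5 arrays were kept. Slope, steps and bend were fitted with limma 3.58.1 in R 4.3.3 (eBayes, Benjamini-Hochberg), with the line as covariate, after the scripts were tested on simulated data. The number of arrays limits the precision. Of the probes, 34885 had 1 gene symbol, 18 several and 10378 none in the platform annotation, and 3 were named from the study's tables. Examined singly were all interval and border genes, all probes called for slope or bend and the 10 probes of smallest p per direction. Up to 4 members of each described list and the genes taken as opposite in the study were added. Not all of these are printed above. *Ffar3*, *H4c8*, *Gpihbp1* and *Wnt4*, with no called slope, are among those left out. Members and lists were chosen with earlier results of these data known. Alternatives covered normalisation, filter, copy scale, covariates, weights, the methods' t-test and leaving out each array.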

Additional observations from a re-analysis of the deposited data

Results flagged for a closer look

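A bend, which is the difference between the steps of both lines, had an adjusted p under 0.05 in limma for 3 probes. It was -0.905 for *App* (ILMN_2791028) and -0.781 for *Usp25*. For nonagouti the computed value was 0.979, but the probe was detected in Ms3Yah Del mice alone and entered the test only through them, so this value is no measure of a change between the other groups.

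Single mice stood apart from their group by Dixon's criterion in 9 of the 136 groups tested, and chance marks about 1 in 20. Among Ms3Yah Del mice, mouse 37038 was high for *Chodl* (285, nearest 232) and for LOC654426 (4340, nearest 3610), and mouse 37072 was high for *Samsn1* ILMN_2502346 (102, nearest 94.1). Among Ts2Yah Dup mice, mouse 34498 was low for *Jam2* ILMN_1227559 (148, nearest 214) and for *Gabpa* ILMN_1252392 (89, nearest 106, not detected), and mouse 34558 was high for *Usp25* (160, nearest 146). *Jam2* ILMN_2790842 was high in Ms3Yah WT mouse 37145 (114, nearest 101) and in Ts2Yah WT mouse 34923 (139, nearest 120). *ND3* was low in Ts2Yah WT mouse 34723 (2160, nearest 2820).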

How the results depend on the processing

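No called slope or bend reversed under any alternative. Of the 16 slopes, 8 were called with neqc, 8 with series matrix values, 8 with the 35th percentile filter, 8 without filter and 5 with median scaling, all among the 16, while 845 were called without the line covariate. By the methods' t-test, 74 of 20038 probes had an unadjusted p under 0.05 in both lines with 1 sign, the 16 called slopes among them. A further 22 had it with opposed signs. These counts are not adjusted, unlike the others. Rising slopes numbered 5 with median scaling and 460 without the line covariate. Falling slopes numbered 0 with neqc, series matrix values, median scaling, the 35th percentile filter and no filter, 3 on linear signal, 3 with array weights and 385 without the line covariate. Slopes with even steps numbered 3 with neqc, 3 with series matrix values, 2 with median scaling, 4 with the percentile filter and 4 without filter. Only 1 bend, that of nonagouti, was called against log2 of copies. The step from 1 to 2 copies was called for 6 probes with median scaling and 8 by the methods' t-test after adjustment, and the step from 2 to 3 copies for 1 on linear signal and 3 with array weights. The median slope of interval genes was 0.46 with neqc and with series matrix values. The cause was not tested.

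Leaving out each array gave 7 to 17 slopes, 7 to 10 rising and 0 to 8 falling, 3 to 12 with even steps, 2 to 3 bends, and 9 to 21 and 0 to 3 calls for the steps from 1 to 2 and from 2 to 3 copies. Slopes of *Chodl*, *D16Ertd472e*, LOC654426, the called *Jam2* probe and the 3 *Atp5j* probes were kept in 23 of 23. No paired analysis was possible because the labels number mice individually and no number is shared between groups.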
